A study of Mus musculus with 8 samples.

Results

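The genes described here are 44 mouse genes of the endoplasmic reticulum (ER), the compartment in which secreted and membrane proteins are folded. They were chosen by symbol, and 44 of the 55401 gene identifiers listed per library were used. A further identifier carries the symbol of Ddit3 and was at 0 counts in all 8 libraries. By role they are 12 chaperones and co-chaperones, 6 disulfide isomerases, 9 genes of ER-associated degradation, 11 genes of protein translocation and signal peptide cleavage, and 6 stress sensors and effectors.

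A nascent secretory protein enters the ER through the Sec61 channel, loses its signal peptide, and is folded by chaperones and by isomerases that form its disulfide bonds. Proteins that fail to fold are passed back to the cytosol and degraded, a route called ER-associated degradation. When unfolded proteins build up, the membrane sensors Ern1 (IRE1), Atf6 and Eif2ak3 (PERK) start the unfolded protein response. Ern1 splices the mRNA of Xbp1, Atf6 is cut to release a transcription factor, and Eif2ak3 slows translation while raising Atf4 protein. B cells rely on this machinery when they become antibody-secreting plasma cells.

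The study measured RNA in B cells of C57BL/6 mice, either wild type (WT) or Jmjd1c B KO, a knockout (KO) in B cells of Jmjd1c, a gene of the Jumonji histone demethylase family. Germinal center B cells, which mutate and select their antibody genes during an immune response, were taken from the spleen by FACS. Activated B cells were pulled from spleen with PanB biotin and SA beads and stimulated in vitro with an agent that the labels do not name. The 4 groups, KO and WT of each cell type, have 2 libraries each. The sources used here do not give the driver of the deletion, the deleted exons or the age of the mice. Nor do the labels say that replicates are separate animals, so each p-value reflects the spread between these libraries alone, and that spread may be technical.

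Among the promoters of these genes a known motif recurs. The genes were picked for their ER roles and the motif for its part in ER stress, so its share is given as a description. Some genes with large differences below carry it, such as Derl3 and Hsp90b1. Others, such as Pdia4, Ppp1r15a, Ern1 and Sdf2l1, have a searched promoter and do not. The ER stress response element (ERSE), bound by ATF6 together with NF-Y, is CCAAT, then any 9 bases, then CCACG. It was searched on both strands in RefSeq windows (GRCm38.p6) from 250 bases before to 50 bases after the transcription start. Windows were found for 36 of the 44 genes. ERSE was present in 9 of these 36 (25%), against 37 of 27025 genes with a window (0.137%) and 39 of 32851 windows (0.119%). The shorter ERSE-II, which is ATTGG, any base, CCACG, was present in Herpud1 and Dnajb11, against 12 of 27025 genes (0.0444%). In the sequences below, each 5′ to 3′ on the gene's strand, capitals mark the fixed bases of the motif. CGTGG before ATTGG is the ERSE read on the opposite strand.
Hspa5 (chr2:34772020-34772048, plus strand): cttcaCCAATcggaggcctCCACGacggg
Calr (chr8:84847070-84847098, minus strand): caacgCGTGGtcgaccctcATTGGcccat
Canx (chr11:50325795-50325823, minus strand): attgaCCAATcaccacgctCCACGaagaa
Dnajc3 (chr14:118937822-118937850, plus strand): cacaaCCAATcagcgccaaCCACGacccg
Creld2 (chr15:88819515-88819543, plus strand): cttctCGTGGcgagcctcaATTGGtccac
Pdia6 (chr12:17266486-17266514, plus strand): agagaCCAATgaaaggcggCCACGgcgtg
Syvn1 (chr19:6046527-6046555, plus strand): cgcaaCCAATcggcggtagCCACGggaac
Derl3 (chr10:75893237-75893265, plus strand): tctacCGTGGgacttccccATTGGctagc
Hsp90b1 (chr10:86705528-86705661, minus strand): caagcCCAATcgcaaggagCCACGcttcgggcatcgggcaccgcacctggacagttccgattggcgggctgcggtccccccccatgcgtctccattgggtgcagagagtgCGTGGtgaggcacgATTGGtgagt
Herpud1 (chr8:94386372-94386392, plus strand): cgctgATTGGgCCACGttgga

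Hsp90b1 was the gene with 2 ERSE copies, one on each strand. In Dnajb11 the ERSE-II copy began 7 bases past the start and is not printed. The XBP1-type element TGACGTGG was present in Txndc5 and Txndc11 (2 of 36, 5.56%, against 0.714% of all genes). The ATF4-type element TGATGNAAN was present in Txndc5 and Herpud1 (5.56% against 4.50%). A match describes letters only, and binding was not measured.

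**Figure D1:**
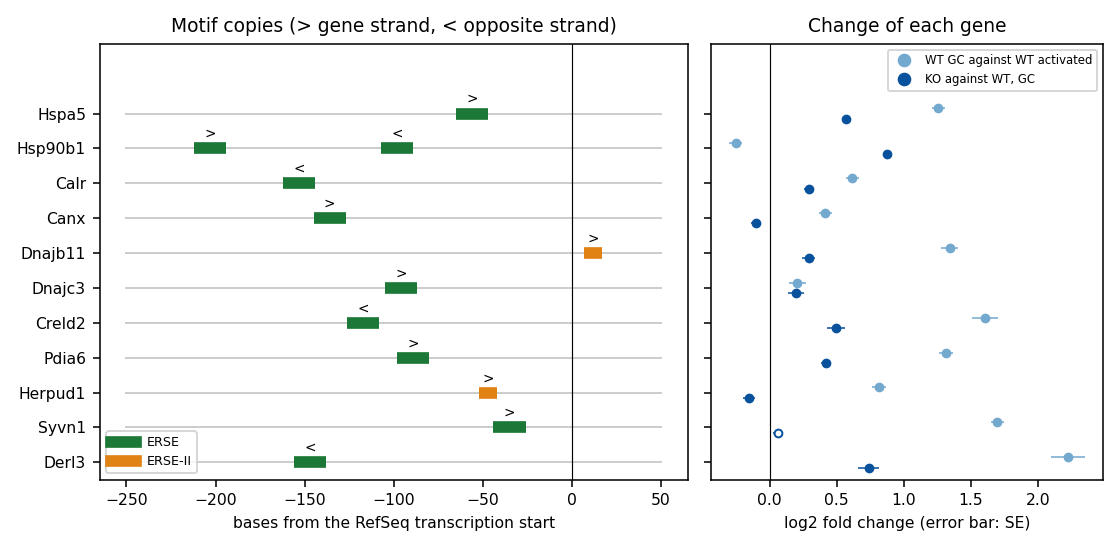
Left, position of each ERSE (green) and ERSE-II (orange) copy in bases from the RefSeq start, with the searched window as a grey line. Right, log2 fold change with its SE from edgeR for the same genes, light blue for WT germinal center against WT activated B cells and dark blue for KO against WT germinal center B cells, open where the adjusted p was 0.05 or more; Derl3 lies farthest right at 2.22, and Hsp90b1 alone lies below 0 in light blue.

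Libraries held 8777425 to 11414559 counts on genes, so a level of 1 CPM (counts relative to library size) rests on 8.78 to 11.4 counts. All 44 genes passed the filter on low counts in every comparison, and the lowest count was 54, for Ern1. Levels below are CPM scaled by TMM over the 8 libraries. In germinal center B cells Jmjd1c itself was at 163 and 158 CPM in the KO and at 194 and 178 CPM in the WT libraries, a log2 fold change of -0.20 (SE 0.04, edgeR adjusted p = 1.66e-05). In activated B cells it was at 136 and 153 CPM in the KO and at 274 and 283 CPM in the WT libraries (-0.94, SE 0.06, adjusted p = 1.81e-11). Both differences have the direction of the labels. The difference in germinal center cells was small, so the knockout there was taken from the labels and not from these levels. The 8 germinal center markers, among them Bcl6, summed to 3102 to 3120 CPM in WT and 1635 to 1647 in KO germinal center libraries, and to 151 to 164 in activated libraries. Of 6 activation markers, 3 were higher and 2 lower in WT germinal center than in WT activated cells, so as a list they did not set the activated libraries apart. Differences over 2-fold went both ways. Il2ra (1.47 and 1.92 against 29.8 and 26.9 CPM) and Nfkbid (43.1 and 44.9 against 160.5 and 152 CPM) were lower in germinal center cells. Cd86 was higher (142.9 and 158.8 against 43.3 and 38.0 CPM).

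The first comparison set germinal center B cells labelled KO against those labelled WT. Folding genes were higher in KO: 11 of 12 chaperones and 4 of 6 disulfide isomerases passed the test upward. Pdia4 stood out with a 3.57-fold difference. The degradation and translocation genes were mixed, and the 3 sensors differed in direction, with Ern1 and Atf6 higher and Eif2ak3 lower. In all, 24 of the 44 genes were called higher (54.5%) and 7 lower (15.9%) by edgeR at an adjusted p under 0.05. Over the 13350 genes tested, 25.1% were called higher and 25.1% lower. The median log2 fold change was 0.21 over the 44 genes and -0.0044 over all genes tested. DESeq2 called 21 of the 44 higher and 3 lower, without Canx, Derl2, Dnajc3, Herpud1, Sec61a1, Ssr1 and Ssr4.

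Among the chaperones, Hspa5 (BiP), the main Hsp70 of the ER, was at 779 and 792 CPM in KO and 531 and 529 CPM in WT libraries. Its log2 fold change was 0.57 (SE 0.03, adjusted p = 6.14e-66). Hsp90b1 (GRP94), the Hsp90 of the ER, was at 549 and 555 CPM in KO and 314 and 290 in WT libraries, a 1.84-fold difference (log2 fold change 0.88, SE 0.04, adjusted p = 1.57e-131). For both genes the KO libraries lay above the WT libraries without overlap, as was so for 35.6% of all genes at 1 CPM or more. Dnajb9, a co-chaperone that restrains Ern1, was at 28.6 and 32.6 CPM in KO and 18.2 and 17.6 in WT (0.78, SE 0.11, adjusted p = 2.79e-11).

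Smaller differences were found in Manf, a secreted partner of Hspa5, at 103 and 108 CPM in KO against 75.8 and 74.3 in WT (log2 fold change 0.50). Creld2 was at 75.02 and 74.8 against 53.3 and 53.3 CPM (0.49). The remaining 6 chaperones that were higher, Hyou1, Calr, Dnajb11, Dnajc3, Sdf2l1 and Ppib, had log2 fold changes of 0.20 to 0.29. Canx, the membrane lectin that holds glycoproteins until they fold, was the exception at 277 and 279 CPM in KO and 301 and 298 in WT (-0.10, SE 0.04, adjusted p = 0.0168), a call lost with all libraries in 1 fit and without GC_KO replicate 1, GC_KO replicate 2 or GC_WT replicate 1. Without GC_KO replicate 1 Dnajc3 also lost its call. Calr, the soluble counterpart of Canx, was at 537 and 547 CPM in KO and 455 and 434 in WT (0.29, SE 0.03). The estimates of the 2 lectin chaperones had opposite signs, but that of Canx was small and its call not secure.

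Pdia4 (ERp72), a disulfide isomerase with several thioredoxin-like domains, lies on chromosome 6 (47796141 to 47813430, minus strand, GRCm38). It was at 229 and 228 CPM in KO and 63.9 and 64.2 CPM in WT germinal center libraries. Its log2 fold change of 1.84 (SE 0.05, adjusted p = 1.70e-272) was the one call over 2-fold among the 44 genes, while 7.28% of all tested genes were called higher by over 2-fold. Activated libraries held 186 and 191 CPM in KO and 165 and 157 in WT, so the WT germinal center libraries were the low group and the KO ones the high group.

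The other isomerases differed by less. Pdia6, which also binds the sensor Ern1, was at 307 and 298 CPM in KO and 224 and 230 in WT (0.42, SE 0.04). P4hb, the founding isomerase PDI, and Txndc5 each had a log2 fold change of 0.22. Pdia3, the partner of the lectin chaperones, was at 327 and 330 CPM in KO and 337 and 340 in WT, and did not pass (-0.04, SE 0.04, adjusted p = 0.358). Txndc11 was at 163 and 165 CPM in KO and 210 and 219 in WT, the lowest of the 44 log2 fold changes (-0.38, SE 0.04, adjusted p = 5.52e-18).

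**Figure D2:**
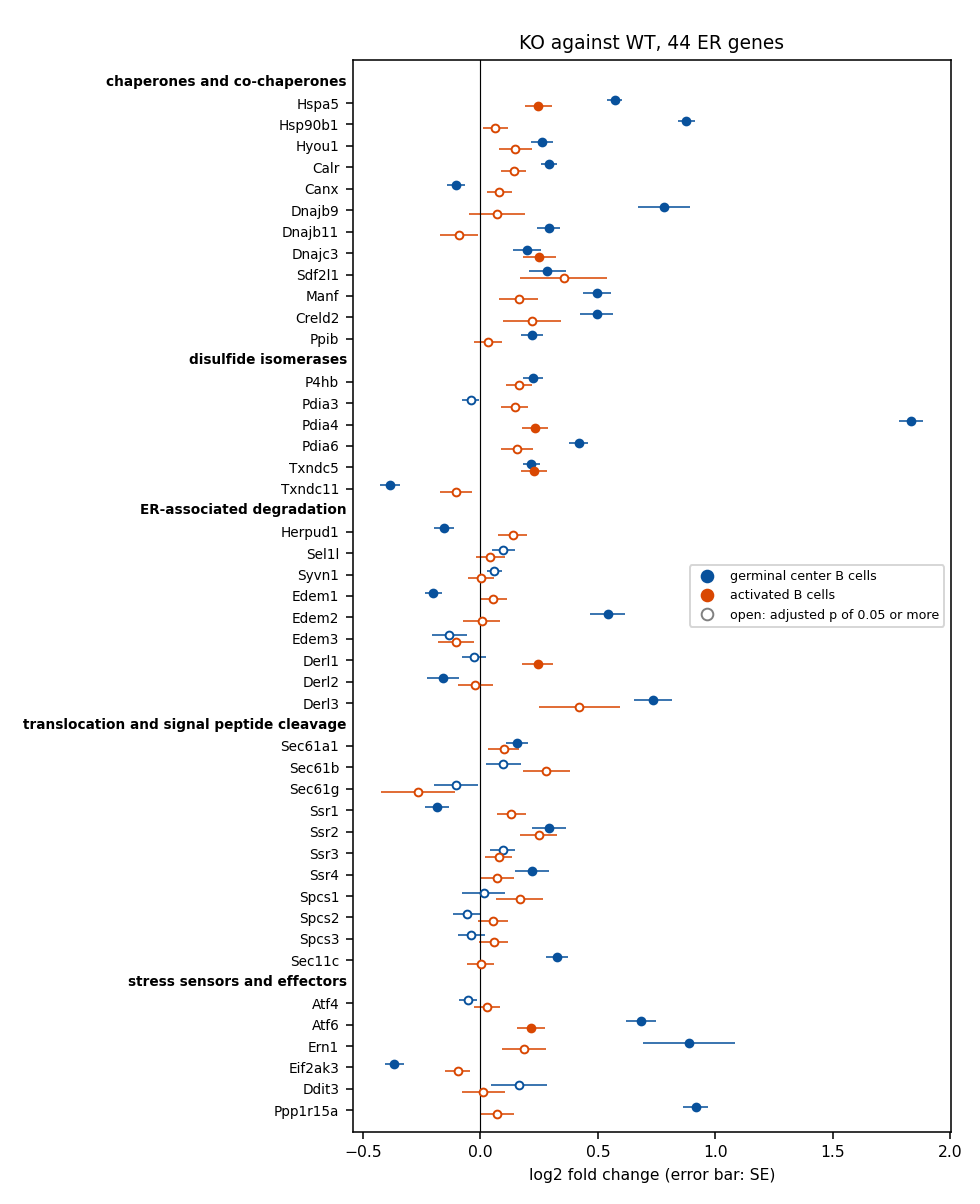
KO against WT log2 fold change with its SE from edgeR for the 44 genes grouped by role, dark blue in germinal center and orange in activated B cells (n = 2 libraries per group), open where the adjusted p was 0.05 or more. Pdia4 lies apart at 1.84 in germinal center cells, and the orange points lie between -0.27 and 0.42.

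In ER-associated degradation, 2 genes were higher, 3 lower and 4 not called. Derl3, a derlin of secretory cells, was at 61.0 and 58.6 CPM in KO and 36.9 and 35.1 in WT (0.74, SE 0.08, adjusted p = 7.19e-19). Edem2, a mannosidase-like protein that marks misfolded glycoproteins, was at 65.0 and 65.1 against 41.9 and 47.4 CPM (0.54, SE 0.07). Edem1 of the same family was lower, at 334 and 322 CPM in KO and 372 and 383 in WT (-0.20, SE 0.04, adjusted p = 1.73e-07). The 3 EDEM genes thus did not move together, as Edem3 was not called (-0.13, SE 0.07). Nor did the derlins: beside Derl3, Derl2 was lower (-0.16, SE 0.07, adjusted p = 0.0365) and Derl1 was not called (-0.03, SE 0.05). The Derl2 call was lost in 7 of the 10 alternatives, among them without GC_KO replicate 1, GC_KO replicate 2 or GC_WT replicate 1.

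The membrane ligase of this route is Syvn1 (HRD1), with Sel1l as its adaptor. Syvn1 was at 746 and 759 CPM in KO and 707 and 742 in WT (0.06, SE 0.03, adjusted p = 0.120). Sel1l was at 145 and 138 CPM against 136 and 129 (0.10, SE 0.05, adjusted p = 0.0876). Neither passed. Herpud1, which recruits the ligase complex, was slightly lower in KO, at 169 and 173 against 190 and 192 CPM (-0.16, SE 0.04, adjusted p = 0.00106).

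Translocation genes showed the narrowest range, from -0.19 to 0.33. Sec11c, a catalytic subunit of signal peptidase, was highest at 172 and 169 CPM in KO and 141 and 132 in WT (0.33, SE 0.05, adjusted p = 1.79e-11). The channel subunit Sec61a1 (0.16) and the translocon-associated Ssr2 (0.29) and Ssr4 (0.22) were also higher. Ssr1 of the same Ssr complex was lower, at 117 and 121 CPM in KO and 136 and 136 in WT (-0.19, SE 0.05, adjusted p = 7.46e-04). The remaining 6, Sec61b, Sec61g, Ssr3, Spcs1, Spcs2 and Spcs3, were not called.

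The 3 sensors of the unfolded protein response were measured at different levels and differed in direction. Ern1 was at 10.2 and 10.4 CPM in KO, against 6.30 and 4.93 CPM in WT germinal center libraries, a 1.85-fold difference (0.89, SE 0.19, adjusted p = 1.87e-05). Atf6 was at 92.9 and 95.9 CPM in KO and 60.6 and 57.3 in WT (0.69, SE 0.06, adjusted p = 2.06e-25). Eif2ak3 was lower, at 198 and 211 CPM in KO and 265 and 263 in WT (-0.37, SE 0.04, adjusted p = 2.25e-18). For each sensor the KO and WT libraries did not overlap, as was so for 35.6% of all genes at 1 CPM or more upward and 37.0% downward.

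Downstream of Eif2ak3, the transcription factor Atf4 was at 291 and 278 CPM in KO and 295 and 297 in WT (-0.05, SE 0.04, adjusted p = 0.240). Its target Ddit3 (CHOP), a factor linked to stress-induced death, was at 21.8 and 22.6 against 20.7 and 19.2 CPM (0.16, SE 0.12, adjusted p = 0.253). Neither passed. Ppp1r15a (GADD34), the phosphatase subunit that reverses the translation block, was at 150 and 153 CPM in KO and 81.0 and 79.5 in WT, a 1.89-fold difference (0.92, SE 0.05, adjusted p = 3.29e-63). Xbp1, the factor that Ern1 activates, was at 190 and 183 CPM in KO and 138 and 144 in WT (0.40, SE 0.05, adjusted p = 4.82e-18). Gene-level counts do not separate spliced from unspliced Xbp1 mRNA.

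**Figure D3:**
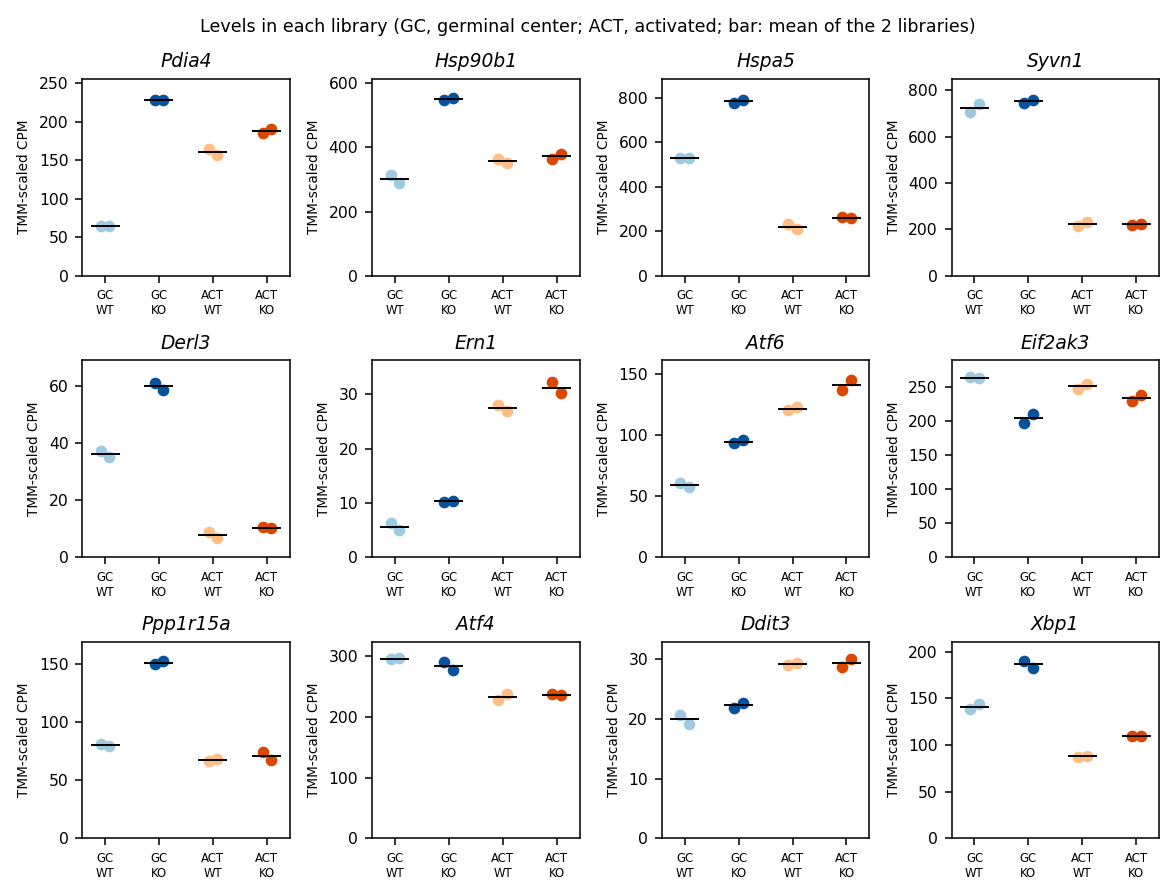
TMM-scaled CPM of 12 genes in each library (points) with the mean of the 2 libraries (bar), each axis starting at 0. Pdia4 is lowest in WT germinal center (GC) libraries at 63.9 and 64.2, while Syvn1 and Derl3 are higher in all GC than in all activated (ACT) libraries.

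Summed over the 12 chaperones, germinal center libraries held 2983 and 3027 CPM with KO, against 2278 and 2237 CPM with WT. The 6 isomerases summed to 1653 and 1674 against 1383 and 1408 CPM. The degradation genes summed to 1764 and 1773 against 1755 and 1791 CPM, and here the groups overlapped. Other cell markers moved in the same comparison. All 8 germinal center markers were lower in KO, and the 2 markers listed as low in these cells were higher. Gpr183 was at 45.9 and 45.1 CPM in KO and 12.6 and 11.1 in WT, and Ccr6 at 73.7 and 63.7 against 10.9 and 8.12. Of 6 activation markers 5 were higher and 0 lower, and the list summed to 771 and 798 CPM in KO and 558.8 and 586.2 in WT. Of 8 tested plasma cell markers, 5 were higher and 1 lower, and the list summed to 1161 and 1162 CPM in KO and 1010 and 1023 in WT. It includes Xbp1. Its defining gene Sdc1 was at 12.2 and 10.4 CPM in KO and 2.10 and 3.10 in WT, Prdm1 at 19.7 and 15.95 against 5.46 and 5.56, Jchain was not called at 488 and 500 against 491 and 505, and Tnfrsf17 was under 1 CPM in every library. Of 10 tested monocyte and macrophage markers, 9 were higher in KO, and their sum was 133 to 151 against 47.7 to 49.2 CPM. Erythroid markers summed to 62.6 to 76.5 against 7.55 to 9.76 CPM, and neutrophil markers to 1.10 and 1.43 against 0 and 0.365 CPM. Mitochondrial transcripts took 9.20% and 9.52% of counts in KO and 5.51% and 5.27% in WT. The part of these shifts in the ER gene differences was not tested. Without immunoglobulin and mitochondrial genes 30 of the 31 calls remained. That setting leaves out rows of counts and not cells, so it does not test the mix of cells. In bulk samples, fewer cells of a type and less RNA per cell cannot be told apart.

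In activated B cells the same genes differed little between KO and WT. By edgeR 6 of 44 were called higher (13.6%), namely Hspa5, Dnajc3, Pdia4, Txndc5, Derl1 and Atf6, and 0 lower, with 16 of the 44 at an unadjusted p under 0.05. Of all 14110 genes tested, 4.85% were called higher and 1.42% lower, and 2585 had an unadjusted p under 0.05. The median log2 fold change was 0.09 over the 44 genes and 0.0006 over all. Estimates were above 0 for 38 of the 44, a share that was not counted over all genes. The lowest estimate was that of Sec61g (-0.27, SE 0.16, not called).

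Hspa5 was at 262 and 260 CPM in KO, against 232 and 209 CPM in WT activated libraries (0.25, SE 0.06, adjusted p = 0.00707). Pdia4 was at 186 and 191 against 165 and 157 CPM (0.23, SE 0.06, adjusted p = 0.00867). Txndc5 was at 228 and 223 against 186 and 199 CPM (0.23, SE 0.06, adjusted p = 0.0112). Derl1, a channel component for retrotranslocation, was at 103 and 106 against 90.2 and 86.2 CPM (0.24, SE 0.06, adjusted p = 0.0203). Dnajc3 (p58IPK, an inhibitor of Eif2ak3) had a log2 fold change of 0.25 (SE 0.07, adjusted p = 0.0260) and Atf6, at 137 and 145 against 120 and 123 CPM, one of 0.21 (SE 0.06, adjusted p = 0.0278).

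These 6 calls were fragile. DESeq2 called 0 of the 44 genes, with 9 at an unadjusted p under 0.05, and edgeR without the filter on low counts also called 0. With edgeR, 1 of the 6 calls remained without ACT_WT replicate 2 (the second WT activated library), 2 without ACT_KO replicate 2, 3 without ACT_WT replicate 1 and 5 without ACT_KO replicate 1. Xbp1 was higher in KO at 110 and 110 against 87.3 and 88.7 CPM (0.32, SE 0.06, adjusted p = 0.00144). Neither Ern1 (32.3 and 30.2 against 28.0 and 27.0 CPM), nor Eif2ak3 (229 and 239 against 247 and 255 CPM), nor Ppp1r15a (74.2 and 67.4 against 66.6 and 68.4 CPM) was called. Neutrophil markers summed to 1818 and 1476 CPM in KO, against 453 and 388 CPM in WT activated libraries, and all 7 were called higher. Monocyte and macrophage markers summed to 1603 and 1474 against 990 and 942 CPM, with 6 of 9 tested called higher, and erythroid markers to 1128 and 937 against 641 and 635 CPM, with 6 of 8 called higher. The part of these other cells in the small ER gene differences was not tested.

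The KO effect was next compared between the cell types, as the difference of the log2 fold changes in 1 edgeR fit over 8 libraries. Of the 44 genes 12 had a higher KO effect in germinal center cells (27.3%) and 8 a lower one (18.2%). Of 14992 genes tested, 17.5% were higher and 13.8% lower. The median difference was 0.06 over the 44 genes and 0.03 over all genes, so the median of the list lay close to that of all genes.

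Pdia4 differed most, by 1.60 (SE 0.08, adjusted p = 1.20e-34). Ppp1r15a followed at 0.84 (SE 0.09, adjusted p = 7.72e-14), then Hsp90b1 at 0.81 (SE 0.07, adjusted p = 1.17e-18). Dnajb9 (0.71), Ern1 (0.70), Edem2 (0.54) and Atf6 (0.47) were also higher. Genes with a lower effect in germinal center cells had differences from -0.32 to -0.18, with Ssr1 at -0.32 (SE 0.08, adjusted p = 7.37e-04), Herpud1 at -0.29 (SE 0.08) and Eif2ak3 at -0.27 (SE 0.07). The Ern1 call was lost with DESeq2 and without GC_WT replicate 2, and that of Derl1 without GC_KO replicate 1 or ACT_WT replicate 2. Txndc5 had nearly the same estimate in each cell type, and its difference was -0.01 (SE 0.07). Of the 6 genes called in activated cells, Hspa5, Pdia4 and Atf6 had a larger effect in germinal center cells, Derl1 a smaller one, and Dnajc3 and Txndc5 no called difference.

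The next comparison set WT germinal center against WT activated B cells. These are cells from tissue and cells from culture, so the state of the B cell, the culture and the isolation cannot be told apart. Germinal center cells had higher levels of most chaperones, degradation genes and Sec61 subunits, and lower levels of the sensors Ern1 and Atf6. By edgeR 28 of 44 genes were called higher (63.6%) and 11 lower (25%). Over the 14426 genes tested, 40.3% were higher and 41.8% lower. The medians were 0.37 and -0.03. Differences over 2-fold were called higher for 12 and lower for 3 of the 44 genes, against 19.9% and 24.3% of all tested genes.

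Sdf2l1, a partner of Hspa5 and its J-proteins, was at 44.3 and 46.8 CPM in WT germinal center and 5.88 and 6.84 in WT activated libraries, a 7.09-fold difference (2.83, SE 0.12, adjusted p = 4.30e-55). Derl3 was at 36.9 and 35.1 against 8.67 and 6.64 CPM (2.22, SE 0.13). Syvn1 was at 707 and 742 against 214 and 230 CPM (1.70, SE 0.05, adjusted p = 5.66e-82). Hspa5 was at 531 and 529 against 232 and 209 CPM (1.26, SE 0.05). In each of these genes both WT germinal center libraries lay above both WT activated libraries, as was so for 45.2% of all genes at 1 CPM or more.

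Other genes over 2-fold higher were Sec61g (1.65), Creld2 (1.60), Dnajb11 (1.34), Edem1 (1.32), Pdia6 (1.31), Txndc11 (1.13), Manf (1.05) and Sec61b (1.02). Sec61a1, the third channel subunit among the 44 genes, was also higher (0.68), while Sec61a2, an alternative subunit among the other ER genes, was lower (-0.56, SE 0.12, named after its value was seen). The Ssr and Spcs subunits went both ways: Ssr1 (0.40) and Spcs1 (0.32) were higher, Ssr3 (-0.22) and Spcs3 (-0.28) lower, and Ssr2, Ssr4 and Spcs2 not called. Without ACT_WT replicate 2 the Spcs1 difference was 0.18 and not called, and without GC_WT replicate 2 the Spcs3 difference was -0.18 and still called. Sec11c was lower in germinal center cells (-0.34, SE 0.05).

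The 3 genes over 2-fold lower were Ern1, Pdia4 and Atf6. Ern1 was at 6.30 and 4.93 CPM in WT germinal center and 28.0 and 27.0 in WT activated libraries, 4.96-fold lower (-2.31, SE 0.15, adjusted p = 4.03e-35). Pdia4 was at 63.9 and 64.2 against 165 and 157 CPM (-1.34, SE 0.06), and Atf6 at 60.6 and 57.3 against 120 and 123 CPM (-1.05, SE 0.06). Eif2ak3 was at 265 and 263 against 247 and 255 CPM and was not called (0.06, SE 0.05, adjusted p = 0.231). Atf4 was slightly higher (0.33, SE 0.05), and Ddit3 lower at 20.7 and 19.2 against 28.9 and 29.2 CPM (-0.56, SE 0.11, adjusted p = 7.65e-07).

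In this comparison several marker lists moved far. WT germinal center libraries held 47.7 to 49.2 CPM of summed monocyte and macrophage markers against 942 to 990 in WT activated libraries, and 0 to 0.365 CPM of neutrophil markers against 388 to 453. Their 7 neutrophil markers were at 0 counts save Camp in 1 library. Erythroid markers summed to 7.55 and 9.76 CPM in WT germinal center against 641 and 635 in WT activated libraries. Jchain was higher in germinal center libraries, at 491 and 505 CPM against 141 and 127, while Sdc1 was lower at 2.10 and 3.10 against 41.4 and 38.3. The part of these cells in the ER gene differences was not tested.

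**Figure D4:**
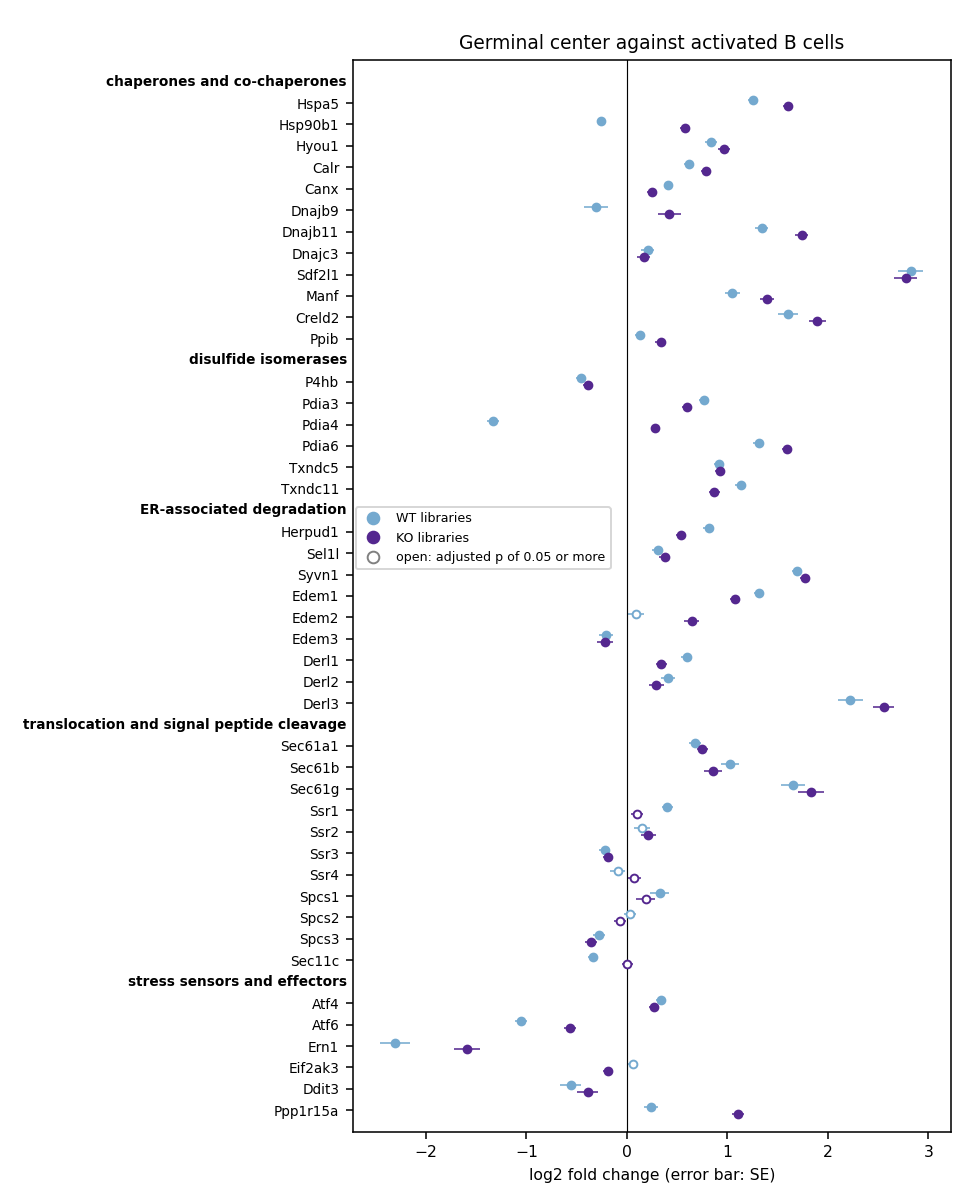
Germinal center against activated B cells, log2 fold change with its SE from edgeR for the 44 genes by role, light blue in WT and purple in KO libraries, open where the adjusted p was 0.05 or more. Sdf2l1 lies farthest right (2.83 and 2.78), Ern1 farthest left (-2.31 and -1.59), and Pdia4, Hsp90b1 and Dnajb9 lie on opposite sides of 0 in WT and KO.

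In KO libraries, germinal center cells were higher than activated cells for 31 of 44 genes (70.5%) and lower for 8 (18.2%) by edgeR. Of 14307 genes tested, 39.2% were higher and 39.5% lower. The medians were 0.40 over the 44 genes and -0.02 over all. All 12 chaperones were called higher, but Dnajc3 (0.17) lost its call without GC_KO replicate 1 and without ACT_KO replicate 1, where its value was 0.11, and with DESeq2 and without the low-count filter. KO activated libraries held more monocyte and macrophage (1603 and 1474 CPM), neutrophil (1818 and 1476 CPM) and erythroid (1128 and 937 CPM) marker transcripts than KO germinal center libraries, and their part here was not tested either. Called higher in germinal center cells in both genotypes were 26 genes, and called lower in both were 7: P4hb, Edem3, Ssr3, Spcs3, Atf6, Ern1 and Ddit3. Of these, Edem3 lost its WT call without GC_WT replicate 2 and its KO call without GC_KO replicate 1 or ACT_KO replicate 2, and Ssr3 its KO call without GC_KO replicate 2.

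Pdia4, Hsp90b1 and Dnajb9 were called in opposite directions. Pdia4 was lower in WT germinal center than WT activated cells (-1.34) and higher in KO (0.28, SE 0.05, adjusted p = 5.16e-06). Hsp90b1 was at 314 and 290 against 363 and 351 CPM in WT (-0.25, SE 0.05) and at 549 and 555 against 365 and 380 CPM in KO (0.58, SE 0.04). Dnajb9 had values of -0.31 (SE 0.12) in WT and 0.42 (SE 0.11) in KO. Its WT call was lost without GC_WT replicate 2 and without ACT_WT replicate 1, where the value was -0.19, and its KO call without ACT_KO replicate 2. For each of the 3 genes the test of the difference given above passed.

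The sensors Ern1 (-1.59, SE 0.13) and Atf6 (-0.57, SE 0.06) remained lower in germinal center than activated cells in KO, by less than in WT. Ppp1r15a was 2.15-fold higher (1.10, SE 0.06, adjusted p = 3.86e-16), against 1.18-fold in WT. Eif2ak3 was lower (-0.19, SE 0.05, adjusted p = 0.00103), a call lost without GC_KO replicate 1, where the value was -0.12.

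**Figure D5:**
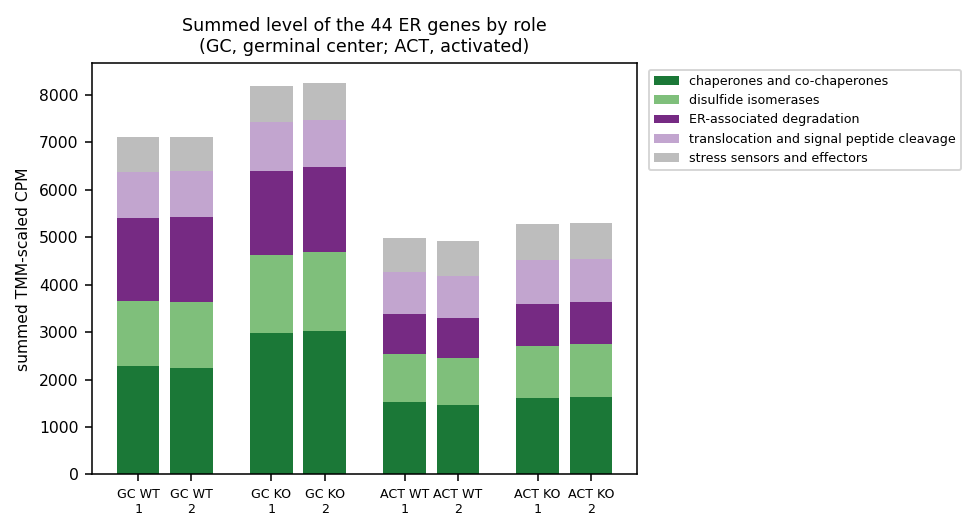
Summed TMM-scaled CPM of the 44 genes in each library, stacked by role. Germinal center (GC) libraries total 8185 and 8254 for KO, 7109 and 7113 for WT, and activated (ACT) libraries 5272 and 5298 for KO, 4976 and 4920 for WT, with most of the gap between cell types in chaperones, isomerases and degradation genes.

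Summed over the 44 genes, germinal center libraries held 8185 and 8254 CPM with KO, against 7109 and 7113 CPM with WT. Activated libraries held 5272 and 5298 CPM with KO, against 4976 and 4920 CPM with WT. The ranges of the 4 groups did not overlap, and the order was the same for chaperones and for isomerases alone. The sum of stress sensors and effectors differed least, at 718 to 770 CPM over all 8 libraries. Its genes moved in opposite directions, with Ern1 and Atf6 higher in activated and Ppp1r15a highest in KO germinal center libraries. Per kilobase of exon, Calr was the most abundant of the 44 in every group, from 99.9 CPM per kb in WT activated to 188 in KO germinal center cells. Ern1 was the least abundant in 3 groups (0.686 CPM per kb in WT and 1.26 in KO germinal center cells, 3.36 in WT activated cells). In KO activated cells it was next to last at 3.82, with Sec61g at 3.798, too close to order. Pdia4 ranked 24 in WT germinal center cells and 7 in KO, and 5 in both activated groups.

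The 9 genes with an ERSE in their window were then read beside the 27 with a window and none, as a description without a test. In KO against WT germinal center cells 7 of the 9 were higher and 1 lower (median log2 fold change 0.42). Of the other 27, 11 were higher and 6 lower (median 0.10), and over all genes tested 25.1% were called each way. The 2 of the 9 that were not higher were Canx and Syvn1, each with 1 copy. In WT germinal center against activated cells 8 of the 9 were higher (median 1.26), and Hsp90b1, which has 2 copies, was lower. Of the 27, 16 were higher (median 0.30). Over all genes tested in that comparison, 40.3% were called higher and 41.8% lower. Pdia4, with the largest KO effect, had no ERSE in its window, nor did Ppp1r15a. Motif and role overlap, as Hspa5, Hsp90b1, Calr, Canx, Dnajc3 and Creld2 are chaperones, and 11 of all 12 chaperones were higher in KO germinal center cells. The chaperones with a window and no ERSE, Dnajb9, Dnajb11, Sdf2l1 and Ppib, were all called higher there too, and of these Dnajb11 holds an ERSE-II copy. The search took exact matches within the windows only, so variant or more distant elements were not seen. The part of the motif apart from role was not tested.

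The wider pathway was read from 118 other ER genes. In KO against WT germinal center cells 41 of the 110 tested (37.3%) were higher and 20 (18.2%) lower, against 25.1% each way over all genes. Of 15 tested N-glycosylation genes, 9 were higher and 1 lower. Genes of ER to Golgi transport were 9 higher and 3 lower of 21. Other chaperones were 5 higher and 1 lower of 12, and genes of oxidative folding 4 higher and 4 lower of 10. Other genes of ER-associated degradation were 4 higher and 4 lower of 17. Genes of the signal recognition particle and other translocon genes were 3 higher and 2 lower of 16. Among 8 regulators of the unfolded protein response 5 were higher and 1, Mbtps2 (-0.40), was lower. Creb3l2, an ER-bound transcription factor related to ATF6, had the largest difference at 12.3 and 12.4 CPM in KO and 2.20 and 2.37 in WT (2.42, SE 0.23, adjusted p = 3.53e-25). Sec24d, a coat protein of transport vesicles, was at 12.7 and 13.7 against 6.61 and 6.66 CPM (0.99, SE 0.18), and Qsox1, an oxidase of disulfide bonds, had a log2 fold change of 0.73.

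Of 11 tested targets of ATF4 and CHOP, 2 (18.2%) were higher and 4 (36.4%) lower (median -0.12), against 25.1% each way over all genes. Asns, asparagine synthetase, was at 9.50 and 10.5 CPM in KO and 23.7 and 25.8 in WT (-1.31, SE 0.14, adjusted p = 3.20e-20). Ube2j1, a conjugating enzyme of ER-associated degradation, was at 118 and 122 against 208 and 213 CPM (-0.81, SE 0.05), and Tmx4, a membrane thioredoxin, had -0.79 (SE 0.11). In activated cells 4 of 113 other genes (3.54%) were higher and 0 lower, against 4.85% and 1.42% of all genes. They were Sec24d (0.67), Phgdh (0.39), Xbp1 (0.32) and Ero1l (0.21), the last named after its value was seen, and the Sec24d call was lost with DESeq2, without the low-count filter and without ACT_KO replicate 1. The KO effects of Creb3l2 and Asns differed between the cell types by 2.17 (SE 0.25) and -1.67 (SE 0.26). Sil1 (0.68) and Alg2 (0.64) also had a higher KO effect in germinal center cells, the former not without GC_WT replicate 1 or ACT_KO replicate 2, and Ube2j1 (-0.85) and Tmx4 (-0.85) a lower one.

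Between the cell types the other ER genes lay near the background: in WT, 47 of 112 (42.0%) were higher in germinal center cells and 46 (41.1%) lower, against 40.3% and 41.8% of all genes. In KO, 51 of 114 (44.7%) were higher and 43 (37.7%) lower, against 39.2% and 39.5%. Psat1, of serine synthesis, was at 152 and 151 CPM in WT germinal center and 20.5 and 21.8 in WT activated libraries (2.83, SE 0.07), and Asns had 2.50. Fkbp2, a prolyl isomerase, was 3.802-fold higher. Ero1l, the oxidase that recharges disulfide isomerases, was at 19.0 and 19.4 against 216 and 226 CPM (-3.53, SE 0.07, adjusted p = 4.21e-110). Creb3l2 was at 2.20 and 2.37 against 22.3 and 20.3 CPM (-3.22, SE 0.19). Slc7a11, the cystine carrier, was at 0 and 0.0912 CPM in WT germinal center and 13.3 and 11.8 in WT activated libraries. Among called genes with a mean of 5 CPM or more over the KO libraries, Psat1 (2.23), Fkbp2 (2.19) and Get4 (1.72) were highest, and Ero1l (-3.32) and Atf3 (-2.41) lowest beside Slc7a11, which was at 0.365 and 0 against 12.8 and 11.6 CPM.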

How the data were processed

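For each of 8 libraries the authors deposited raw counts of reads per gene. The submitters' processing notes name Trimmomatic, DESeq2 and mm10; their versions, the aligner, the counter and the strand setting: not given in the sources used here. The 5 summary entries that name no gene were left out of library sizes; of all entries, 47.2% to 53.9% fell on no feature and 1.12% to 1.26% were ambiguous. Groups and replicate numbers came from the titles.

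Counts were tested with edgeR 4.0.16 (R 4.3.3): TMM scaling, filterByExpr, its quasi-likelihood test, and adjustment after Benjamini-Hochberg over all tested genes, called at an adjusted p under 0.05. Each comparison used its 4 libraries, and the difference of KO effects all 8. The SE is the log2 fold change divided by the square root of F. The procedure was run on simulated counts with 200 changed genes. That is fewer than were called in any comparison here, so its errors with many changed genes were not tested. Replicates differed by more than sampling noise, with a chi-square per degree of freedom of 1.38 to 2.28. Comparisons that share a group are given side by side and were not correlated.

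The authors' counts were used as deposited. The 44 genes, the 118 other ER genes, the 73 markers and the motifs were chosen with earlier results of these data known. Named genes were, per comparison, the highest and lowest called gene of each role, the sensors, Hspa5, Atf4, Ddit3, Xbp1 and, among other ER genes of at least 5 CPM, the 3 highest and 3 lowest called; further genes of the 44 complete each role, and marker genes were named after their values were seen. Coordinates are GENCODE M21, with 55141 of 55401 identifiers matched. All 118 and 73 symbols matched, 2 of the 118 by an older symbol. Since strand is unknown, values are uncertain where over 10% of a gene's exon length overlaps exons of the opposite strand: Ppib (25.0%), Spcs1 (16.3%), Ssr2 (12.8%), Txndc5 (11.9%) and Hsp90b1 (10.3%). Ddit3 shares 6.13% of its exon length with its second identifier. In GENCODE the Hspa5 model begins upstream of the RefSeq start, so its ERSE lies within that model. Alternatives were other scaling, no filter, DESeq2 1.42.0, leaving out immunoglobulin and mitochondrial genes, a replicate block, all libraries in 1 fit and leaving out each library.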

Additional observations from a re-analysis of the deposited data

Results flagged for a closer look

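The KO effect differed between germinal center and activated B cells for 20 of the 44 genes (45.45%), by the edgeR test of the difference itself over 8 libraries. Of all 14992 genes tested, 17.5% had a higher and 13.8% a lower KO effect in germinal center cells. Values are the log2 KO effect in germinal center cells minus that in activated cells. It was above 0 for 12 genes. Pdia4 had 1.60, Ppp1r15a 0.84, Hsp90b1 0.81, Dnajb9 0.71 and Ern1 0.70. Edem2 had 0.54, Atf6 0.47, Dnajb11 0.38 and Manf 0.33. Hspa5 and Sec11c each had 0.32, and Pdia6 had 0.26.

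The difference was below 0 for 8 genes. Ssr1 had -0.32, Herpud1 -0.29, Txndc11 -0.28, Derl1 -0.27, Eif2ak3 -0.27 and Edem1 -0.26. Pdia3 had -0.19 and Canx -0.18, and these were the least secure: the Canx call was lost in 9 and the Pdia3 call in 8 of the 13 alternatives, and without ACT_WT replicate 2 the Pdia3 difference was -0.10. Calls were also lost for Txndc11 without GC_WT replicate 2 or ACT_KO replicate 2, Ern1 without GC_WT replicate 2, Manf without GC_KO replicate 2, and Derl1 without GC_KO replicate 1 or ACT_WT replicate 2. DESeq2 did not call Ern1, Manf and Pdia6 either. For Canx, Herpud1, Edem1 and Ssr1 the KO effect was called lower in germinal center cells while the activated estimate was above 0 and not called.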

How the results depend on the processing

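With 2 libraries per group, small differences depended on the choices made. In KO against WT germinal center B cells, DESeq2 called 21 of the 44 genes higher and 3 lower, in place of 24 and 7, and 4342 genes in all in place of 6698; leaving out 1 library gave 23 to 25 higher and 5 to 7 lower. In activated B cells the 6 higher calls became 0 without the low-count filter, 0 with DESeq2 and 10 with the replicate block, and 1 to 5 when 1 library was left out. Calls over all genes were then 465, 349 and 1388, in place of 885, and 601 to 951 with 1 library left out. For the difference of KO effects, DESeq2 called 3069 genes in all in place of 4685, and leaving out 1 library gave 5 to 7 of the 44 genes lower in place of 8. Between the cell types, 27 to 29 genes were called higher and 9 to 11 lower in WT, and 29 to 30 and 6 to 8 in KO, with 1 library left out. In activated cells 2 estimates that were not called changed sign: Atf4 (0.03) ranged from -0.00871 (without ACT_WT replicate 1) to 0.0618 (without ACT_WT replicate 2), and Ddit3 (0.01) from -0.0184 (without ACT_KO replicate 2) to 0.0398 (without ACT_KO replicate 1). Over the named genes, 1782 of 1890 alternative values kept their direction and side of the threshold, and 106 kept the direction and lost the call. The cause was not tested. Deviations of same-numbered libraries correlated at -0.0352 to 0.00991 over 14992 genes. A value over all genes cannot show whether same-numbered libraries share a day or litter that touches part of the genes. Depth limits Ern1 most, with 54 counts in its lowest library.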
